A study of Homo sapiens with 6 samples.

Results

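The genes described here are 10 feedback genes of the MAPK pathway that lies downstream of BCR-ABL: the phosphatase genes DUSP4, DUSP5 and DUSP6, the Sprouty genes SPRY1, SPRY2 and SPRY4, the Spred genes SPRED1 and SPRED2, and the transcription factor genes ETV4 and ETV5. Their rows were found by name and by no measured value, although the names were proposed with earlier results of these data known. Of the 10 names, 9 had a row among the 19330 transcripts of the ribosome profiling (Ribo-Seq) table, in which each row is 1 gene. No row carried the name SPRED2, which was not analysed here. The cells were K562, a human leukemia line that carries the BCR-ABL fusion kinase. The control cells (sgCtrl) carried the Cas9 vector pLentiCRISPRv2 with a guide against an olfactory receptor gene, OR11A1 or OR2M49 as the labels spell it, and the labels do not say which guide each library had. The depleted cells (sgN6AMT1) carried the same vector with a guide against N6AMT1, a methyltransferase whose substrates include eRF1, the protein that reads stop codons. All cells went through 48 h of puromycin and were collected on day 10 after infection as transduced populations. Each group had 3 libraries, which per the study came from separate lentiviral infections.

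BCR-ABL recruits adaptor proteins that load Ras with GTP, and Ras then activates the kinases Raf, MEK and ERK in turn. Active ERK induces genes whose products dampen the same pathway. DUSP proteins remove the activating phosphates from ERK, Sprouty proteins hold back the activation of Ras and Raf, and Spred proteins bring the Ras inactivator NF1 to the membrane. ETV4 and ETV5 are ETS factors of the PEA3 subfamily, which ERK signaling induces and activates. Transcripts of this set are widely read as a gauge of ERK output.

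The libraries held between 1821356 and 2969736 counts of ribosome-protected fragments. Levels are given as CPM, the usual counts-per-million scale on normalized library sizes, and a count of 3 in a library corresponded to between 1.01 and 1.65 CPM. N6AMT1 itself had 25, 24 and 34 fragments across the sgCtrl replicates against 10, 9 and 8 in sgN6AMT1, with no overlap, and its mean fell from 12.5 to 4.2 CPM (log2 fold change -1.51, SE 0.313, adjusted p = 6.69e-05 by edgeR's quasi-likelihood test). All 10 marker genes of erythroleukemia cells had counts. Their summed level, 69.1% of it from the fetal globin genes HBG1 and HBG2, was 27300 to 28800 CPM in sgCtrl and 27700 to 28600 CPM in sgN6AMT1. Within the sum 2 markers were called higher (HBE1 and TAL1) and 4 lower (HBZ, GATA1, KLF1 and TFRC) by edgeR, and the part of this in the results below was not tested. Of 11 markers of other lineages, 10 had a row and 3 of these, CD2, MS4A1 and CD14, were at 0 in every library. The rest had counts, from 5 in all for CD3E to 2412 for EPCAM, with 436 for the T-cell gene CD3D and 381 for the collagen gene COL1A2. The summed level of the 10 markers, most of it from EPCAM, was 231 to 270 CPM in sgCtrl and 246 to 257 CPM in sgN6AMT1.

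The 9 genes with a row ranged from well covered by ribosome-protected fragments to undetected. ETV5, ETV4, SPRY4 and SPRED1 had enough fragments to be tested, and DUSP5, SPRY2, SPRY1, DUSP4 and DUSP6 did not pass the filter on low counts (filterByExpr, minimum of 10). Of the 4 tested members, 0 were higher and 0 lower at an adjusted p of 0.05 by edgeR, while 26.9% of the 9202 genes tested were called (12.9% higher and 13.9% lower in sgN6AMT1). At an unadjusted p of 0.05, 2 of the 4 passed in edgeR and 2 in limma-voom, and 0 of the 6 members that DESeq2 could test passed. All 4 log2 fold changes were above 0, the largest being that of ETV4 at 0.42, and the one nearest to the threshold was that of ETV5. With 4 genes tested, the count says little about the set.

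Because N6AMT1 acts on the factor that reads stop codons, the sequence around the stop codon is shown for the members, read from GRCh38 by the GENCODE 44 model of the listed transcript. Each line gives the last 15 coding bases in lower case, the stop codon in capitals and the 6 bases after it, 5′ to 3′ on the coding strand, after the position of the stop codon. DUSP4 is not shown, and the listed SPRY2 transcript had no match in GENCODE 44.
ETV5, chr3:186048639-186048641, minus strand: gaaggctttgcttacTAAgtttct
ETV4, chr17:43528519-43528521, minus strand: ggtggctactcttacTAGccccca
SPRY4, chr5:142314209-142314211, minus strand: cccgacaagcctttcTGAcagttt
SPRY1, chr4:123402549-123402551, plus strand: cagggtaaaccatcaTGAtttttg
SPRED1, chr15:38351662-38351664, plus strand: cataaagctgctggaTGAaatggt
DUSP5, chr10:110510424-110510426, plus strand: acggccacatcctgcTAAaactgg
DUSP6, chr12:89349254-89349256, minus strand: tctctgcaatctacgTGAaagacc
All the stop codons are represented. The most common among the tested genes, TGA, ended 49.1% of the 8593 tested genes with a matched coding sequence (CDS), TAA ended 29.7% and TAG 21.2%. The median log2 fold change of tested genes was 0.01 for TGA, -0.01 for TAA and 0.03 for TAG. The PEA3 genes ETV5 and ETV4 end in TAA and TAG after the same codon, tac, whereas SPRY4 and SPRED1 end in TGA.

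Among the PEA3 factors, ETV5 was the member with the most fragments. It lies at chr3:186048252-186108675 on the minus strand (GRCh38), and the listed transcript has 13 exons. Its fragments numbered 59, 81 and 61 across the sgCtrl replicates against 81, 89 and 70 in sgN6AMT1, which is 29.6, 27.9 and 30.1 CPM against 35.5, 38.5 and 38 CPM. Every sgN6AMT1 library was above every sgCtrl library in CPM. Across all genes tested, 37.5% showed such a separation in one direction or the other, and ETV5 was the 1 tested member of 4 that did. Its mean was 29.2 ± 1.13 CPM in sgCtrl and 37.3 ± 1.59 CPM in sgN6AMT1 (SD, n = 3 each). The log2 fold change was 0.36 (SE 0.143, 95% interval 0.08 to 0.64), a ratio of 1.28. By edgeR's quasi-likelihood test the adjusted p was 0.0508, just outside the threshold, and by DESeq2 it was 0.326. The log2 fold change stayed between 0.32 and 0.41 in 13 alternative settings, of which 2 called it, namely scaling by total counts (adjusted p = 0.0215 by edgeR) and a minimum mean of 50 counts (adjusted p = 0.0288 by edgeR). Its libraries differed within groups by less than counting error, with a chi-square per degree of freedom of 0.134 against a median of 1.06 over tested genes, so the small SDs understate its error.

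ETV4 had a difference of similar size with wider spread. It lies at chr17:43528337-43545899 on the minus strand, with 13 exons in the listed transcript. Its fragments numbered 25, 42 and 42 across the sgCtrl replicates against 40, 52 and 44 in sgN6AMT1, or 12.6, 14.5 and 20.7 CPM against 17.5, 22.5 and 23.9 CPM. The highest sgCtrl library lay above the lowest sgN6AMT1 library, so the groups overlapped. The means were 15.9 ± 4.26 and 21.3 ± 3.33 CPM (SD, n = 3 each), and the log2 fold change was 0.42 (SE 0.199, 95% interval 0.03 to 0.82). The adjusted p was 0.109 by edgeR's quasi-likelihood test and 0.44 by DESeq2. Without sgCtrl replicate 3, the control with the highest ETV4 level, the log2 fold change was 0.62 and the adjusted p 0.0292 by edgeR.

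The balance between the pair did not separate the groups. The log2 ratio of ETV4 to ETV5 was -1.22, -0.94 and -0.53 in sgCtrl and -1.01, -0.77 and -0.67 in sgN6AMT1. The means, -0.90 ± 0.35 and -0.81 ± 0.18 (SD, n = 3 each), differed by 0.08, with p = 0.8 in a 2-sided exact permutation test, which cannot go below 0.1 for 3 libraries against 3. Summed over the pair, the level was 42.2, 42.4 and 50.8 CPM in sgCtrl and 53, 60.9 and 61.9 CPM in sgN6AMT1, without overlap. Among single genes tested, 37.5% had no overlap, in one direction or the other. ETV1, the remaining member of the subfamily, was not among the 10 genes and is named here after its values were seen. Its mean was 11.5 ± 3.53 CPM in sgCtrl and 15.6 ± 3.67 CPM in sgN6AMT1 (log2 fold change 0.50, SE 0.234, adjusted p = 0.105 by edgeR). It was called without sgCtrl replicate 3 (adjusted p = 0.0293 by edgeR) and without sgN6AMT1 replicate 3 (adjusted p = 0.0471 by edgeR).

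**Figure D1:**
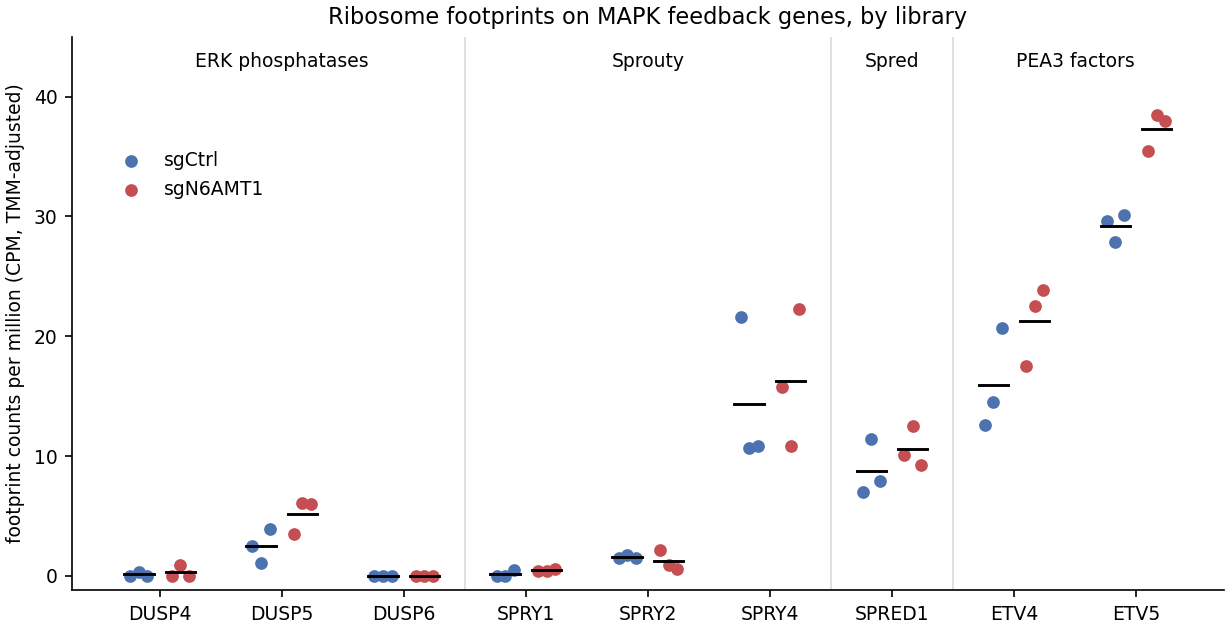
Ribosome-protected fragments of the feedback genes by library, in CPM on the vertical axis, with 1 point for each of the 6 libraries and a bar at the group mean. ETV5 is the tested member whose groups are apart, at 27.9 to 30.1 CPM in sgCtrl and 35.5 to 38.5 CPM in sgN6AMT1, while the SPRY4, SPRED1 and ETV4 groups overlap.

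Of the Sprouty genes, SPRY4 carried most of the signal. SPRY4 (chr5:142310427-142325001, minus strand, 3 exons) had 43, 31 and 22 fragments across the sgCtrl replicates against 36, 25 and 41 in sgN6AMT1, or 21.6, 10.7 and 10.8 CPM against 15.8, 10.8 and 22.3 CPM. Each group held 1 library with about the highest level and 1 with about the lowest, so the groups covered the same range. The means were 14.4 ± 6.25 and 16.3 ± 5.74 CPM (SD, n = 3 each). The log2 fold change was 0.19 (SE 0.235, 95% interval -0.28 to 0.66) and the adjusted p 0.603 by edgeR. The libraries varied far more than counting error, with a chi-square per degree of freedom of 5.14, above that of 98.1% of tested genes. The log2 fold change was -0.03 without sgCtrl replicate 2 and -0.08 without sgN6AMT1 replicate 3, so its direction rested on single libraries.

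SPRY2 and SPRY1 were close to the detection limit. SPRY2 (gene at chr13:80335976-80341126, minus strand) had 3, 5 and 3 fragments across the sgCtrl replicates against 5, 2 and 1 in sgN6AMT1, in all 11 against 8. The groups overlapped, at 1.57 ± 0.134 and 1.2 ± 0.874 CPM (SD, n = 3 each). SPRY1 (chr4:123398386-123403760, plus strand, 2 exons) had 0, 0 and 1 fragments across the sgCtrl replicates against 1 count in each sgN6AMT1 library. A difference in either gene was not detectable at this depth. When the filter on low counts was dropped, the adjusted p was 0.795 for SPRY2 and 0.578 for SPRY1 by edgeR.

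SPRED1, the Spred gene with a row, did not separate the groups. It lies at chr15:38252836-38357249 on the plus strand, with 7 exons. Its fragments numbered 14, 33 and 16 across the sgCtrl replicates against 23, 29 and 17 in sgN6AMT1, or 7.03, 11.4 and 7.89 CPM against 10.1, 12.5 and 9.23 CPM. The means of 8.77 ± 2.3 and 10.6 ± 1.71 CPM (SD, n = 3 each) gave a log2 fold change of 0.24 (SE 0.263, 95% interval -0.28 to 0.76) and an adjusted p of 0.553 by edgeR. Its libraries varied about as much as counting error alone, with a chi-square per degree of freedom of 1.03. The log2 fold change was 0.51 without sgCtrl replicate 2, 0.11 and 0.16 without sgCtrl replicates 1 and 3, and 0.10 without sgN6AMT1 replicate 2, with no call in any of these fits.

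The ERK phosphatases had the fewest fragments of the set. DUSP5, which acts on ERK in the nucleus (chr10:110497907-110511533, plus strand, 4 exons), had 5, 3 and 8 fragments across the sgCtrl replicates against 8, 14 and 11 in sgN6AMT1. In CPM this was 2.51, 1.03 and 3.94 against 3.51, 6.05 and 5.97, so that 1 library of each group lay within the range of the other. The total was 16 fragments across the sgCtrl replicates against 33 in sgN6AMT1, and the means were 2.5 ± 1.45 and 5.18 ± 1.45 CPM (SD, n = 3 each). DUSP5 did not pass the filter. Without the filter its log2 fold change was 1.12 (SE 0.453) and its adjusted p 0.0692 by edgeR, and DESeq2 gave an adjusted p of 0.326. It passed both the filter and the threshold when sgCtrl replicate 3 was left out (log2 fold change 1.61, adjusted p = 0.0192 by edgeR) or sgN6AMT1 replicate 1 was left out (1.35, adjusted p = 0.0275 by edgeR), and without sgCtrl replicate 2 the log2 fold change was 0.65 and the adjusted p 0.361 by edgeR.

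DUSP4, another nuclear phosphatase (chr8:29333064-29350684, minus strand, 4 exons), had 1 count in sgCtrl, in replicate 2, and 2 in sgN6AMT1, both in replicate 2. DUSP6, the cytosolic phosphatase that is specific for ERK (chr12:89347235-89352501, minus strand, 3 exons), had 0 counts in all 6 libraries. A count of 0 in a total of 13431376 allows a level of up to 0.223 CPM, a limit that covers counting error only. Of the 19330 rows, 5708 (29.5%) were at 0 in all libraries. DUSP6 is often used as a readout of ERK output, and no difference in it could be measured here.

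Levels can be compared between members only per length of the CDS. On that scale ETV5 had the highest mean over the 6 libraries, at 21.7 CPM per kb of CDS (range 18.2 to 25.1). SPRY4 followed at 15.8 (11.0 to 23.0), ETV4 at 12.8 (8.66 to 16.4) and SPRED1 at 7.26 CPM per kb (5.27 to 9.36). In this order each of these genes overlapped with the next across libraries. DUSP5 came after them at 3.32 CPM per kb (0.892 to 5.24), and then SPRY1 at 0.331 (0 to 0.566) and DUSP4 at 0.17 (0 to 0.729), whose ranges overlapped, with DUSP6 at 0. SPRY2 had no CDS length. Without the division by length, ETV4 stood before SPRY4.

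**Figure D2:**
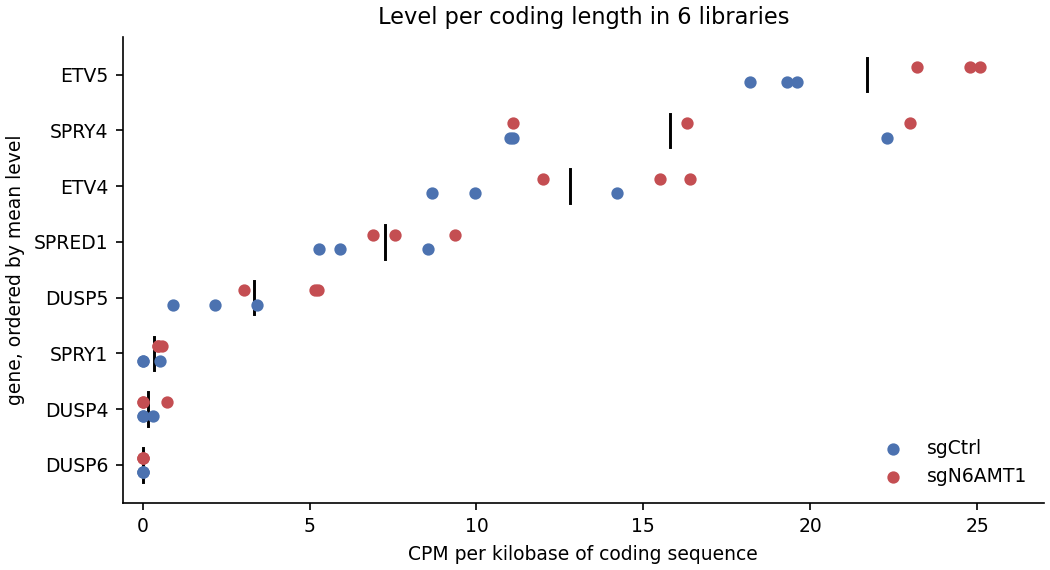
Level of each member in CPM per kb of CDS, with 1 point per library and a bar at the mean of all 6. The order runs from ETV5 at 21.7 through SPRY4, ETV4, SPRED1 and DUSP5 to SPRY1, DUSP4 and DUSP6, the last at 0 in every library.

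By role, the PEA3 factors accounted for 62.9% of the 1091 counts on members, the Sprouty genes for 20.3%, SPRED1 for 12.1% and the phosphatases for 4.77%. Summed over the 9 members, the level was 74.8, 67.6 and 75.4 CPM in sgCtrl and 85, 92.5 and 100 CPM in sgN6AMT1. The groups did not overlap in this sum, and the counts of ETV5 and ETV4 made up most of it. Of single genes tested, 37.5% showed no overlap, in one direction or the other. The sum was 72.6 ± 4.38 CPM in sgCtrl and 92.6 ± 7.7 CPM in sgN6AMT1 (SD, n = 3 each) and was not tested, since the set was chosen with earlier results of these data known. These are footprints on mRNA, and a higher mRNA level and a higher rate of translation cannot be told apart in them.

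**Figure D3:**
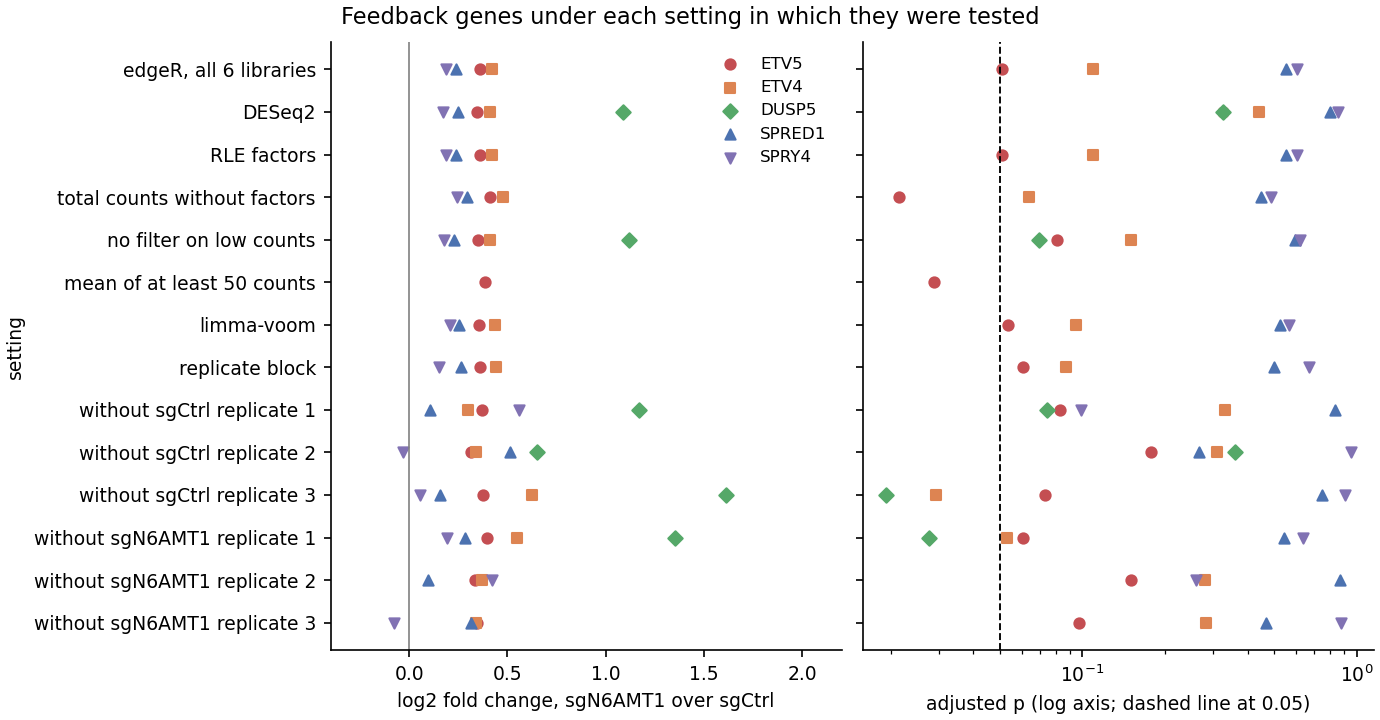
Log2 fold change (sgN6AMT1 over sgCtrl, left) and adjusted p on a log axis (right, dashed line at 0.05) of ETV5, ETV4, DUSP5, SPRED1 and SPRY4 under each processing setting that tested them, with 1 marker shape per gene. The log2 fold change of ETV5 stays between 0.32 and 0.41, and its adjusted p runs from 0.0215 (edgeR, total counts) to 0.326 (DESeq2). That of SPRY4 runs from -0.08 to 0.56 on the log2 scale and falls below 0 without sgCtrl replicate 2 or sgN6AMT1 replicate 3.

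Upstream of the feedback genes, neither gene of the kinase fusion was called. BCR had a mean of 91.3 CPM in sgCtrl and 91 CPM in sgN6AMT1 (adjusted p = 0.949 by edgeR), and ABL1 had 104 and 95.9 CPM (adjusted p = 0.426 by edgeR). Counts on these rows do not separate the fusion from the normal genes. Among 16 tested genes of BCR-ABL and its adaptors, 3 were higher and 1 lower (25% called, beside 26.9% of all genes). The number higher was 1 in DESeq2 and without sgCtrl replicate 2 or 3, and 5 with total counts. The median log2 fold change of these genes was 0.00 beside 0.01 over all genes tested. The docking protein genes GAB2 and GAB1 went opposite ways. GAB2, a main link from BCR-ABL to Ras and PI3K, had 38, 49 and 30 fragments across the sgCtrl replicates against 75, 76 and 53 in sgN6AMT1 and rose from 16.9 to 31.5 CPM (log2 fold change 0.90, SE 0.172, adjusted p = 1.49e-05 by edgeR). GAB1 had 33, 62 and 32 fragments across the sgCtrl replicates against 24, 21 and 11 in sgN6AMT1 and fell from 17.9 to 8.52 CPM (log2 fold change -1.07, SE 0.236, adjusted p = 0.000193 by edgeR). In both genes the groups did not overlap in CPM, as in 37.5% of all genes tested. The adaptor genes CRKL (191 to 225 CPM) and SHC1 (28.7 to 38.5 CPM) also rose, with adjusted p values of 0.00511 and 0.0307 by edgeR, and neither passed in DESeq2 (0.0813 and 0.246).

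Of 12 tested Ras genes and Ras regulators, 0 were called by edgeR (beside 26.9% of all genes), by limma-voom or, among 17 tested, by DESeq2. At an unadjusted p of 0.05, 4 passed in edgeR and 4 in limma-voom, and 0 in DESeq2. The number of Ras genes and regulators called higher was 1 with total counts and 1, among 21 tested, with no filter on low counts. Of 19 tested genes for Raf, MEK, ERK and their scaffolds, 7 were higher and 0 lower (36.8% called, beside 26.9% of all genes). Their median log2 fold change was 0.15. The number higher was 3 in DESeq2, 3 without sgCtrl replicate 1, 3 without sgN6AMT1 replicate 2 and 4 without sgCtrl replicate 3. It was 10 with total counts and 9 with a mean of at least 50 counts. LAMTOR2, part of the complex that holds MEK on late endosomes, rose from 34.9 to 60.2 CPM (log2 fold change 0.79, SE 0.123, adjusted p = 1.75e-07 by edgeR). PPP1CB, the phosphatase subunit that acts with SHOC2 to activate Raf, rose from 163 to 206 CPM, the scaffold gene IQGAP1 from 95.6 to 122 CPM and MAP2K1, which encodes MEK1, from 62 to 81 CPM (adjusted p of 0.000128, 0.00179 and 0.00641 by edgeR). In DESeq2 MAP2K1 did not pass (adjusted p = 0.0961). MAPK3, which encodes ERK1, had 20.8 and 24.2 CPM (adjusted p = 0.431 by edgeR).

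Of 16 tested ERK substrate kinases and transcription factors, 2 were higher and 0 lower (12.5% called, beside 26.9% of all genes). Their median log2 fold change was -0.08. The number higher was 0 in DESeq2, 1 without sgCtrl replicate 2 or sgN6AMT1 replicate 1 or 2, and 3 without sgN6AMT1 replicate 3. The number lower was 2 without sgCtrl replicate 3 and 1 without sgN6AMT1 replicate 3. MKNK2, a kinase that phosphorylates the cap-binding protein eIF4E, rose from 20 to 31.5 CPM, and ELK1, an ETS factor that ERK activates, rose from 8.44 to 13.1 CPM (adjusted p of 0.00167 and 0.0356 by edgeR). Neither passed in DESeq2 (0.0584 and 0.306). CIC, which represses ETV4 and ETV5 until ERK signaling relieves it, had 28.6 ± 5.45 CPM in sgCtrl and 24.5 ± 5.53 CPM in sgN6AMT1 (SD, n = 3 each, adjusted p = 0.323 by edgeR). COP1, a ubiquitin ligase for ETV proteins that the table lists under its older symbol RFWD2, had 55.4 ± 7.16 and 46.1 ± 2.18 CPM (SD, n = 3 each). Its groups did not overlap, as in 37.5% of all genes tested. The log2 fold change was -0.28 (SE 0.121) and the adjusted p 0.0726 by edgeR, or 0.0237 without sgCtrl replicate 3. ATXN1 and ATXN1L, partners of CIC, had totals of 23 and 52 counts and were not tested.

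ERK also induces genes outside the feedback set, and many of these were called. Of 23 tested, 12 were higher and 3 lower (65.2% called, beside 26.9% of all genes), with a median log2 fold change of 0.46. In DESeq2 9 were higher and 2 lower, among 28 tested. With a mean of at least 50 counts, where fewer genes were tested, 7 were higher and 0 lower. Without each library in turn the number higher was 11 to 13. The list was chosen with earlier results of these data known, and its share of calls was not tested. Stress kinases and other pathways induce many of these genes as well. BHLHE40, a transcriptional repressor, had 112, 161 and 98 fragments across the sgCtrl replicates against 337, 382 and 285 in sgN6AMT1 and rose from 53.4 to 156 CPM (log2 fold change 1.54, SE 0.0965, adjusted p = 1.4e-25 by edgeR). JUN, an AP-1 subunit that JNK also drives, rose from 22.4 to 62.6 CPM (log2 fold change 1.51, SE 0.14, adjusted p = 7.6e-16 by edgeR). ID3, an inhibitor of basic helix-loop-helix factors, rose from 5.58 to 24.2 CPM, and the stress-responsive gene IER3 from 11.7 to 33.5 CPM (log2 fold changes 2.17 and 1.51, adjusted p of 5.15e-12 and 1.16e-10 by edgeR). The 3 genes that fell, named here after their values were seen, were CCND1, which encodes cyclin D1, from 11.9 to 4.17 CPM, and the EGF receptor ligand genes EREG, from 6.31 to 1.56 CPM, and AREG, from 7.44 to 3.62 CPM (adjusted p of 3.93e-05, 0.000381 and 0.0295 by edgeR). All had few fragments in sgN6AMT1, at 9, 6 and 11 for CCND1 and 9, 11 and 4 for AREG. EREG was close to the detection limit there, with 10, 16 and 17 fragments across the sgCtrl replicates against 3, 4 and 3 in sgN6AMT1. AREG did not pass in DESeq2 (adjusted p = 0.218) or without any 1 library other than sgN6AMT1 replicate 2 (adjusted p up to 0.145 by edgeR). The immediate early gene EGR1, also named after its values were seen, rose from 28.5 ± 8.46 to 39.9 ± 9.74 CPM with overlapping groups (SD, n = 3 each, adjusted p = 0.0163 by edgeR). EGR1 was not called in DESeq2 (adjusted p = 0.199), without sgCtrl replicate 2 (0.23 on the log2 scale, adjusted p = 0.362 by edgeR) or without sgN6AMT1 replicate 3 (0.32, adjusted p = 0.168 by edgeR).

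Of 14 tested relatives of the members, among other DUSP, SPRY and SPRED genes and phosphatases of MAP kinases, 1 was higher and 0 lower. This was 7.14% called, beside 26.9% of all genes, and the median log2 fold change was 0.10. The number higher ranged from 0, without sgN6AMT1 replicate 1, to 3, without sgCtrl replicate 1. The 1 called, DUSP3, was named after its values were seen and rose from 6.33 to 13.5 CPM (log2 fold change 1.08, SE 0.272, adjusted p = 0.00117 by edgeR). Without sgN6AMT1 replicate 1, its highest library, DUSP3 was not called (log2 fold change 0.80, adjusted p = 0.0522 by edgeR). DUSP1, the immediate early MAP kinase phosphatase, had 16.4 ± 1.8 and 16.8 ± 1.49 CPM, and DUSP7, a cytosolic ERK phosphatase, had 6.61 ± 0.503 and 7.37 ± 2.73 CPM (SD, n = 3 each, adjusted p of 0.914 and 0.745 by edgeR). IL17RD, a membrane inhibitor of the pathway, was at 0 in all 6 libraries. Over the 6 lists, 25 of 100 tested genes were higher, 4 lower and 71 not called, with a median log2 fold change of 0.11. The share called was 29%, beside 26.9% of all genes tested (12.9% higher and 13.9% lower).

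**Figure D4:**
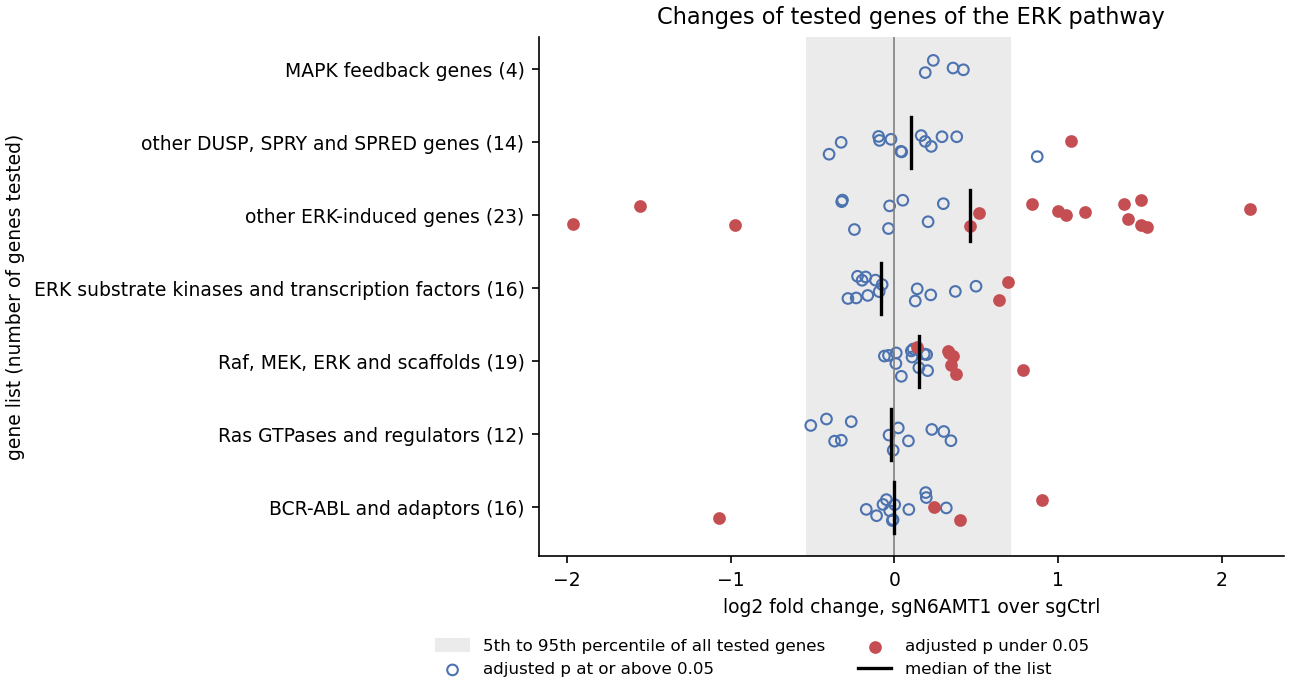
Log2 fold change (sgN6AMT1 over sgCtrl) of each tested gene, by list, with filled points for an adjusted p under 0.05 and a line at each list's median, except for the members, over a grey band from the 5th to the 95th percentile of all tested genes. The 4 tested members lie between 0.19 and 0.42 with no filled point, while the other ERK-induced genes spread from -1.96 for EREG to 2.17 for ID3. EREG had 3, 4 and 3 counts in the sgN6AMT1 libraries.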

How the data were processed

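Ribo-Seq libraries of K562 cells, 3 sgCtrl and 3 sgN6AMT1, were analysed from 1 deposited table of raw counts per transcript. The authors trimmed reads with cutadapt, mapped them with HISAT2 to GRCh38 and with bowtie2 to 1 canonical transcript per gene, and assigned P-sites with riboWaltz. They counted both P-sites on CDSs and overlaps with an Ensembl annotation. Which of these counts was deposited is not given in the sources used here. No molecular identifiers are described, and limits for 0 counts cover counting error only. The intervals come from the edgeR fit, which also estimates variation between libraries.

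Members were found by gene symbol. Genes were tested in R 4.3.3 with edgeR 4.0.16 (filterByExpr with a minimum of 10 counts, TMM factors, robust quasi-likelihood F test, 2-sided, Benjamini-Hochberg adjustment over 9202 genes, threshold 0.05). The untested rows held 0.465% of counts. CPM use TMM-adjusted library sizes, and SEs derive from the F statistic. Alternatives were DESeq2 1.42.0, RLE factors, total counts, limma-voom (limma 3.58.1), no filter, a minimum mean of 50 counts, a replicate block and fits without each library. The script was tested on simulated data. Transcripts were matched without version to GENCODE 44 (17687 rows, 91.5%).

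The members, the 6 lists and the tests were chosen with earlier results of these data known. The naming rule took all members, N6AMT1, BCR, ABL1, MAPK3, CIC, ATXN1, ATXN1L, COP1, DUSP1, DUSP7 and IL17RD, and from each list up to 4 genes with the smallest adjusted p among those called with a mean of at least 10 CPM. A gene that the rule also took is not reported here. The study's RNA-Seq was not used here.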

Additional observations from a re-analysis of the deposited data

How the results depend on the processing

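Members were called in few settings, and DUSP5 entered the tests in some of them. The number of members higher was 0 in DESeq2, RLE, unfiltered, limma-voom and replicate block fits, 1 with total counts and 1 with a mean of at least 50 counts (ETV5 in both), and 0 to 2 without each library in turn. The 2 were ETV4 and DUSP5, without sgCtrl replicate 3, and DUSP5 alone was called without sgN6AMT1 replicate 1. In both fits DUSP5 passed the filter through sgN6AMT1 replicates 2 and 3, its highest libraries, so its calls there are no independent support. DESeq2 called 1329 genes in all where edgeR called 2473, and 14 genes of the 6 lists as higher where edgeR called 25. With a mean of at least 50 counts, 0 list genes were lower where 4 were before, since fewer genes were tested. Total counts moved the median log2 fold change of all genes from 0.01 to 0.06 and gave 1560 higher and 976 lower genes, in place of 1191 and 1282.

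Among named genes, directions turned for 4 that were not called. Without each library in turn the log2 fold change of SPRY4 ranged from -0.0751 to 0.559, that of BCR from -0.115 to 0.0629, that of DUSP1 from -0.0424 to 0.095 and that of DUSP7 from -0.202 to 0.347. BCR was also 0.0421 with total counts and 0.0136 with a mean of at least 50 counts. The cause was not tested.

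Replicate numbers were not taken as pairs in the main test. Deviations of same-numbered libraries correlated at -0.14, 0.04 and 0.00, and those of differently numbered libraries at -0.14 to 0.14. With 3 libraries per group, these values cannot show whether same-numbered libraries shared a batch. With the replicate block, 2390 genes and 0 members were called (ETV5 log2 fold change 0.36, adjusted p = 0.0609 by edgeR).

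Some calls were lost when 1 library was left out, in fits with fewer samples. By edgeR the adjusted p of SHC1 was up to 0.261 without any library but sgN6AMT1 replicate 1, that of CRKL up to 0.0636 without sgCtrl replicate 2 or 3, and that of MAP2K1 up to 0.133 without sgCtrl replicate 1 or sgN6AMT1 replicate 2. That of ELK1 was up to 0.298 without sgCtrl replicate 2 or 3 or sgN6AMT1 replicate 1 or 2, and that of IQGAP1 was 0.0717 without sgCtrl replicate 3. Depth limits the members: 5 of the 9 listed members had under 50 counts over 6 libraries.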
